A study of Mus musculus with 6 samples.

Results

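Proneural transcription factors of the basic helix-loop-helix (bHLH) family were followed in the cerebellum of newborn mice. These factors bind the E-box, a short DNA motif written CANNTG, as a dimer with a widely expressed E protein, and they turn on neuronal genes in dividing progenitors or in the neurons those progenitors form. In the rhombic lip, *Atoh1* starts the granule neuron lineage and keeps granule neuron progenitors (GNPs) dividing in the external granule layer, while *Neurod1*, *Nhlh1*, *Nhlh2* and *Neurod2* act as these cells leave the cell cycle and mature. *Neurog1* and *Neurog2* are used by progenitors of the cerebellar ventricular zone, which forms GABAergic neurons, and *Neurod4* and *Neurod6* are best known from other parts of the nervous system. The 9 genes were chosen by symbol out of 54532 genes in the count table, and all 9 passed the filter on low counts. The division into 5 granule lineage factors and 4 factors of other lineages was made here from this background knowledge.

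RNA from cerebella at postnatal day 1 (P1) was sequenced in bulk in 6 libraries. The 3 control libraries came from *Tox3* f/f littermates without Cre, and the 3 mutant libraries came from *Nestin-cre;Tox3* f/f animals. Both groups therefore carried the floxed *Tox3* allele on both chromosomes, and only the mutants carried the transgene, in which regulatory sequence of *Nestin* drives Cre recombinase in neural progenitors throughout the nervous system. An effect of the transgene and an effect of the deletion cannot be told apart in this design, and the labels do not say whether each library is 1 animal. *Tox3* itself, counted over all its exons, had 64.3, 63.0 and 64.4 CPM (counts scaled to a common library total) in the control libraries and 55.3, 63.2 and 59.2 CPM in the mutant libraries. This count does not check the labels, and "mutant" below means a library labelled so. Total counts lay between 15391854 and 17178478 per library, so that 3 counts corresponded to at most 0.196 CPM. The Y-chromosome gene *Ddx3y* had 1451, 0 and 0 counts in the control libraries and 1237, 0 and 1101 in the mutant libraries. Libraries of both sexes were thus present in each group, but in unequal numbers, and the main fit held no covariate for sex. In bulk tissue, fewer cells of a type and less RNA per cell cannot be told apart. Where a value is higher, a larger share of a cell type and more RNA per cell cannot be told apart either. This holds for every gene below, also where a gene is called upregulated.

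The stretches of promoter before the gene start are shown for the 5 granule lineage factors and, for contrast, for *Neurod6*, because the E-box is the motif that bHLH factors bind. They were taken from the RefSeq table of promoters on build GRCm38.p6, which held all 9 genes, and are written 5′ to 3′ on the strand of the gene with each CANNTG in capitals. *Atoh1* is given from chr6:64728875-64729124 (plus strand), *Neurod1* from chr2:79456752-79456886 (minus strand), *Nhlh1* from chr1:172057597-172057846 (minus strand), *Nhlh2* from chr3:102009895-102010075 (plus strand), *Neurod2* from chr11:98329649-98329895 (minus strand) and *Neurod6* from chr6:55681264-55681513 (minus strand).
*Atoh1*: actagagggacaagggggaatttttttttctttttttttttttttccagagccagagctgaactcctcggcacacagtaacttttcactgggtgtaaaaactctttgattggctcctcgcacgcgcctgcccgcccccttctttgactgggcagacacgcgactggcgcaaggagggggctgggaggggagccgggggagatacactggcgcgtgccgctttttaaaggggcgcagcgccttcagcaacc
*Neurod1*: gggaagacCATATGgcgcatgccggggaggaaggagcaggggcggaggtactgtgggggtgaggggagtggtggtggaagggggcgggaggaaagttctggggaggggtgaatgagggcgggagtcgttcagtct
*Nhlh1*: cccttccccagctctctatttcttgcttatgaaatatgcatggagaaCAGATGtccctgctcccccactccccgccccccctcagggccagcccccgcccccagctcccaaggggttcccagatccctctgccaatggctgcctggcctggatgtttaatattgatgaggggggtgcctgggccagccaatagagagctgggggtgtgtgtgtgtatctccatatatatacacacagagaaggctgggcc
*Nhlh2*: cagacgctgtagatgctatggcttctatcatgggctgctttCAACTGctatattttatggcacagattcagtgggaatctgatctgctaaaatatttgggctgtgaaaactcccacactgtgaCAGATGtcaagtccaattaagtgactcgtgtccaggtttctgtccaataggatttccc
*Neurod2*: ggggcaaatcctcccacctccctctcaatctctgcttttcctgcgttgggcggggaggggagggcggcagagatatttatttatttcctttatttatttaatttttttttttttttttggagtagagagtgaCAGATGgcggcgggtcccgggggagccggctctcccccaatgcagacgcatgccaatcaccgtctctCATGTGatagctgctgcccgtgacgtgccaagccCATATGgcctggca
*Neurod6*: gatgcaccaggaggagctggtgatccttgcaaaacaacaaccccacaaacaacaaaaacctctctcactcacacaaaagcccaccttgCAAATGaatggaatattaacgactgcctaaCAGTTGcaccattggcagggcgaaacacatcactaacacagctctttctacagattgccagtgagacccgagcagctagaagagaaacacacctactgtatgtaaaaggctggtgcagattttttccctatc

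The stretch before *Atoh1* held no E-box, that of *Neurod1* held 1, CATATG, and that of *Nhlh1* held 1, CAGATG. The same CAGATG was found before *Nhlh2* and *Neurod2*, and its first base lay 203, 127 and 118 bases before the RefSeq start of *Nhlh1*, *Nhlh2* and *Neurod2*. In the full windows of 300 bases, which run 50 bases past the start, CANNTG was counted 4 times in *Nhlh2*, 3 times in *Neurod2*, 2 times each in *Nhlh1* and *Neurod6*, 1 time each in *Neurod1* and *Neurog1* and not at all in *Atoh1* and *Neurog2*. *Neurod4*, with 2 windows, held 0 and 1. Each motif was read on both strands, and CANNTG includes CAGATG and CAGCTG. Among all 32851 promoter windows, 72.3% held a CANNTG, 17.2% a CAGATG and 16.3% a CAGCTG, the last of which was found here in *Nhlh2* and in 1 window of *Neurod4*. A match describes the letters and is not a binding site, and these libraries do not measure binding.

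Of the 9 genes, 4 were downregulated in the mutant cerebella, none was upregulated, and the other 5 did not pass the thresholds, which asked for an adjusted p below 0.01 together with a log2 fold change of more than 0.5 in size. The 4 were *Atoh1*, *Nhlh1*, *Neurod1* and *Nhlh2*, all granule lineage factors. Among all 17505 tested genes, 3.63% were downregulated and 3.03% upregulated, 6.66% in either direction. The granule lineage factors had a median log2 fold change of −1.16, the 4 factors of other lineages one of −0.15, and all tested genes one of −0.01. In all 5 granule lineage factors every mutant library lay below every control library, which was the case for 20.1% of all tested genes. In each of the 4 factors of other lineages the groups overlapped, while 40.5% of all tested genes were separated in one direction or the other. Test values below come from the quasi-likelihood test of edgeR on 3 libraries per group, with p-values adjusted by Benjamini and Hochberg's method over all tested genes.

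**Figure D1:**
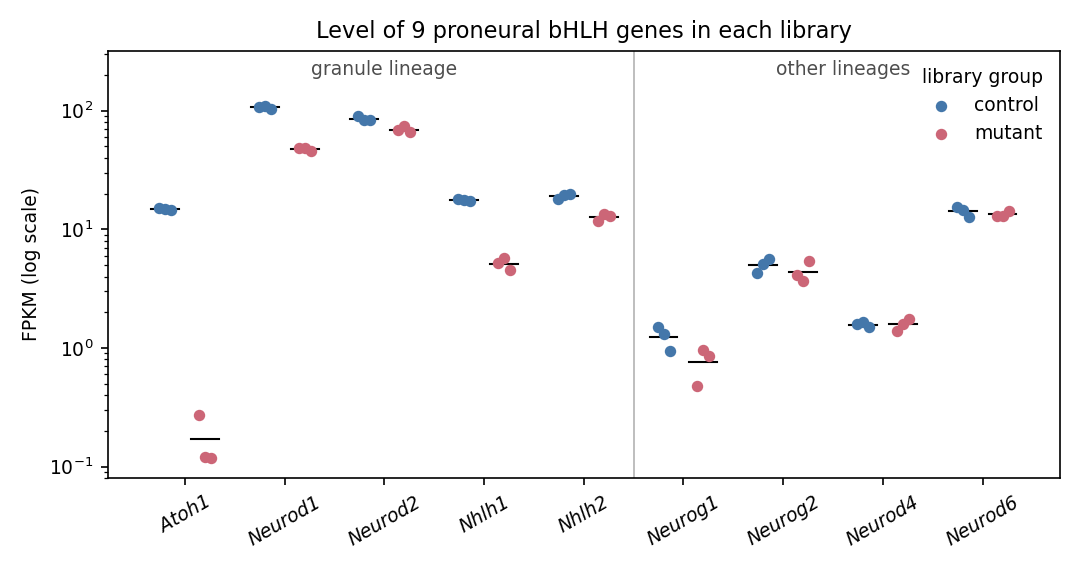
Deposited FPKM (counts scaled by gene length and library size) of the 9 genes on a log scale, with 1 point for each library and a bar at the mean of each group of 3. The mutant points lie below the control points without overlap for the 5 granule lineage factors on the left and overlap them for the 4 factors on the right.

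*Atoh1* (ENSMUSG00000073043, GRCm38 chromosome 6 from 64729125 to 64731245, plus strand) was nearly lost. It had 501, 491 and 481 counts in the control libraries and 10, 4 and 4 counts in the mutant libraries. As a level per length these were 15.2, 14.9 and 14.4 FPKM against 0.272, 0.122 and 0.117 FPKM. The mutant level was 1.18% of the control level (95% interval 0.884 to 1.58%), a log2 fold change of −6.40 ± 0.19 (SE, edgeR adjusted p = 8.85e-08). Only 2 of the tested genes had a lower fitted log2 fold change. With so few counts left, the size of this fall depends on the pseudocount, and on log2(FPKM + 1) it was −3.76. The edgeR interval may be too narrow for so few counts. With DESeq2 in place of edgeR the log2 fold change was −6.42 with a larger SE, 0.37. Without mutant 1 it was −6.92 in edgeR, below the lower end of the interval above, −6.82 on the log2 scale.

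*Nhlh1* (ENSMUSG00000051251, chromosome 1 from 172052292 to 172057573, minus strand), a factor of newly formed neurons, showed the second largest fall of the 9 genes. Control libraries had 18.0, 17.6 and 17.3 FPKM and mutant libraries 5.21, 5.68 and 4.54 FPKM. The level in the mutants was 29.0% of that in the controls (95% interval 25.1 to 33.7%), a log2 fold change of −1.78 ± 0.10 (SE, edgeR adjusted p = 3.76e-06). A lower log2 fold change was fitted for 51 genes.

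*Neurod1* (ENSMUSG00000034701, chromosome 2 from 79452521 to 79456751, minus strand), which drives GNPs toward differentiation, was lower in every mutant library than in any control library. Its level was 108, 109 and 103 FPKM in the control libraries and 48.2, 48.7 and 46.0 FPKM in the mutant libraries. These values give 44.6% of the control level (95% interval 41.5 to 47.9%) and a log2 fold change of −1.16 ± 0.05 (SE, edgeR adjusted p = 6.60e-07). By p, *Neurod1* held rank 8 of the tested genes, although 203 genes had a lower log2 fold change. It is the only one of the 9 genes that overlaps other genes of the table, namely *Cerkl* on the same strand with at most 46 counts in a library and *Gm26755* on the other strand with at most 1, against 2022 to 4593 counts for *Neurod1*.

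The paralog *Nhlh2* (ENSMUSG00000048540, chromosome 3 from 102010076 to 102015492, plus strand) fell less than *Nhlh1*, and the ratio of both is given with the other ratios. Its level was 18.1, 19.5 and 19.7 FPKM in the control libraries and 11.7, 13.3 and 12.9 FPKM in the mutant libraries. The mutant level was 65.9% of the control level (95% interval 59.5 to 72.9%), a log2 fold change of −0.60 ± 0.07 (SE, edgeR adjusted p = 0.000198). The 95% interval of the log2 fold change, −0.75 to −0.46, reaches above the threshold of −0.5, but the call was kept in all 17 other fits.

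*Neurod2* (ENSMUSG00000038255, chromosome 11 from 98325415 to 98329648, minus strand), which is used by maturing neurons, had 89.4, 83.1 and 83.4 FPKM in the control libraries and 68.5, 73.8 and 65.5 FPKM in the mutant libraries. All mutant values lay below all control values, at 80.9% of the control level (95% interval 74.1 to 88.3%). The log2 fold change was −0.31 ± 0.06 (SE, edgeR adjusted p = 0.00363), and *Neurod2* was not called because this difference is smaller than 0.5. Without a limit on the fold change, 7.24% of all tested genes were lower at this adjusted p threshold. The adjusted p was above 0.01, between 0.0101 and 0.0210, when control 1, control 2, control 3, mutant 1 or mutant 3 was left out, and between 0.0152 and 0.0280 in the 3 limma fits on FPKM.

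**Figure D2:**
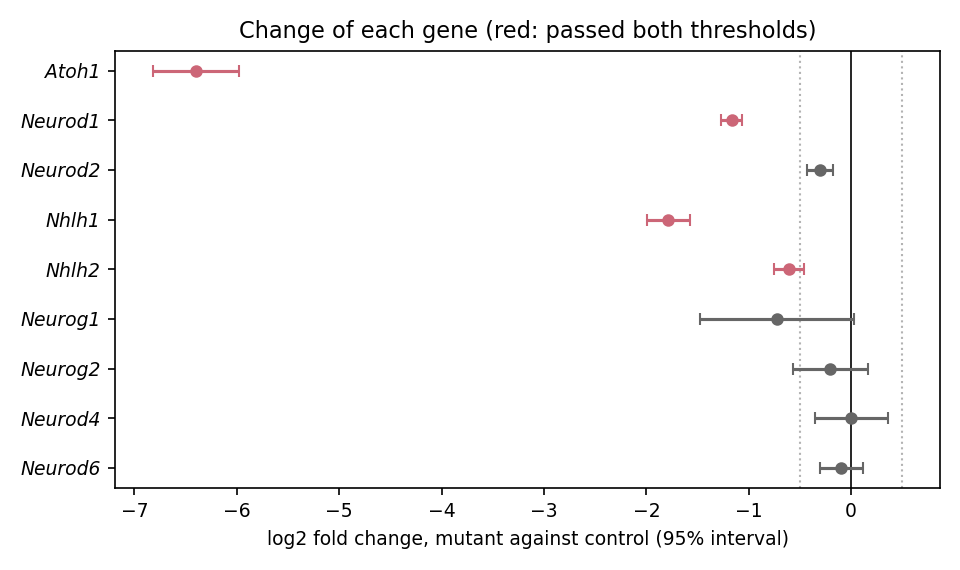
Log2 fold change of each gene, mutant against control, with its 95% interval from edgeR, where red marks genes past both thresholds and dotted lines stand at −0.5 and 0.5. The intervals of *Neurog1*, *Neurog2*, *Neurod4* and *Neurod6* include 0.

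The 4 factors of other lineages differed in how much the data can say about them. *Neurog2* (ENSMUSG00000027967, chromosome 3 from 127633135 to 127635631, plus strand) had 4.26, 5.13 and 5.63 FPKM in the control libraries and 4.09, 3.68 and 5.36 FPKM in the mutant libraries. The ranges overlapped over most of their width, and the log2 fold change was −0.20 (95% interval −0.57 to 0.16, adjusted p = 0.408 from edgeR). *Neurog1* (ENSMUSG00000048904, chromosome 13 from 56250478 to 56252163, minus strand) was counted only 14 to 39 times in a library. It had 1.49, 1.30 and 0.944 FPKM in the control libraries against 0.478, 0.956 and 0.848 FPKM in the mutant libraries. Its log2 fold change of −0.72 was larger than that of *Nhlh2*, but the 95% interval ran from −1.47 to 0.03 (edgeR adjusted p = 0.150), which is 36.0 to 102% of the control level, so that at this depth a change was not detectable.

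*Neurod6* (ENSMUSG00000037984, chromosome 6 from 55677822 to 55681263, minus strand) overlapped *Atoh1* in level in the controls and is the contrast closest to it. It had 15.5, 14.7 and 12.8 FPKM in the control libraries and 12.9, 13.1 and 14.4 FPKM in the mutant libraries. The mutant level was 93.6% of the control level (95% interval 81.0 to 108%), with a log2 fold change of −0.10 (edgeR adjusted p = 0.496). *Neurod4* (ENSMUSG00000048015, chromosome 10 from 130268152 to 130280240, minus strand) had 1.58, 1.64 and 1.50 FPKM in the control libraries and 1.39, 1.60 and 1.76 FPKM in the mutant libraries. The mutant libraries lay on both sides of the control libraries, and the mutant level was 100.2% of the control level (95% interval 78.4 to 128%, adjusted p = 0.991 from edgeR).

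The order of the 9 levels changed with the genotype. Per length, *Neurod1* was the most abundant in the control libraries, followed by *Neurod2*, *Nhlh2*, *Nhlh1*, *Atoh1*, *Neurod6*, *Neurog2*, *Neurod4* and *Neurog1*. Of the neighbours in this order, only *Atoh1* and *Neurod6* overlapped between libraries. In the mutant libraries the order was *Neurod2*, *Neurod1*, *Neurod6*, *Nhlh2*, *Nhlh1*, *Neurog2*, *Neurod4*, *Neurog1* and *Atoh1*, in which *Neurod6* overlapped *Nhlh2* and *Nhlh1* overlapped *Neurog2*. Among the 100 genes that the table assigns to the bHLH family, *Neurod1* moved by mean FPKM from rank 1 to rank 5, *Neurod2* from rank 2 to rank 4, and *Atoh1* from rank 25 to rank 76. *Neurod6*, at rank 26 and rank 25, hardly moved.

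Summed over the 9 genes, the level was 271, 267 and 259 FPKM in the control libraries and 153, 161 and 151 FPKM in the mutant libraries. *Neurod1* made up 40.1% ± 0.582 of this sum in the controls and 30.8% ± 0.720 in the mutants (SD, n = 3). *Neurod2* went the other way, from 32.1% ± 0.888 to 44.6% ± 1.30, although its own level was lower. *Atoh1* supplied 5.60% of the sum in the controls and 0.110% in the mutants, and *Neurod6* 5.38% and 8.69%. A share depends on all 9 genes, so that a gene whose level was about equal in both groups takes a larger share in the mutants.

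**Figure D3:**
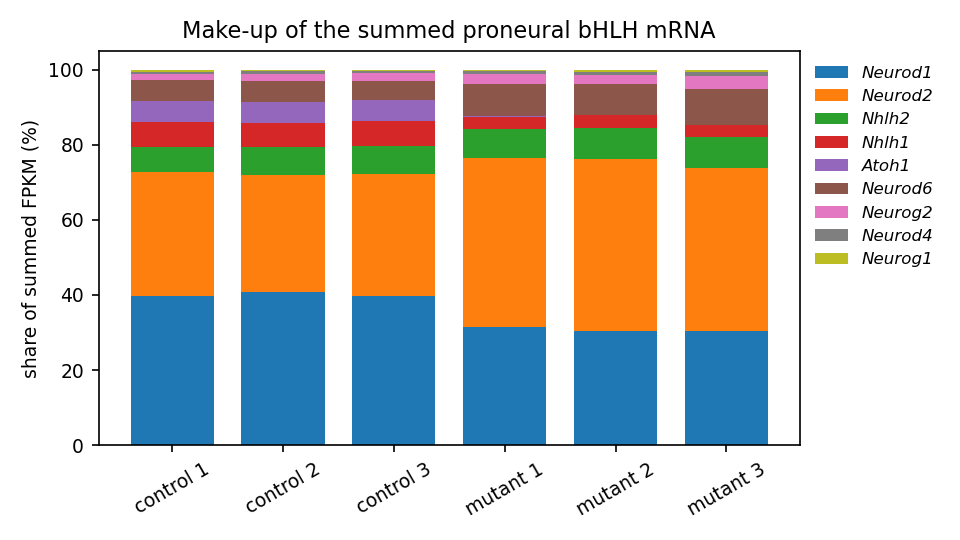
Share of each gene in the summed FPKM of the 9 genes, in percent, as 1 stacked bar per library. *Neurod1* is the largest segment in the 3 control libraries and *Neurod2* in the 3 mutant libraries, where the segment of *Atoh1* is too thin to see.

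Ratios between genes of the same library do not depend on the scaling between libraries. They were taken in CPM, which is not scaled by gene length. A ratio within a group therefore does not compare levels per length, and only its difference between the groups is read here. In bulk tissue they compare the mRNA of all cells and do not assign it to a stage of the lineage. The log2 ratio of *Neurod1* to *Neurod2*, in CPM, was 0.07, 0.18 and 0.10 in the control libraries and −0.71, −0.80 and −0.71 in the mutant libraries. *Neurod1* thus went from 1.08 times to 0.599 times *Neurod2*. The CPM ratio of *Nhlh2* to its paralog *Nhlh1* rose from 2.37 to 5.25. Its log2 values were 1.14, 1.27 and 1.32 in the control libraries and 2.26, 2.33 and 2.59 in the mutant libraries. *Nhlh2* is the longer gene, with 5417 bases against 2464. Per length, the mean levels of *Nhlh2* and *Nhlh1* were 19.1 and 17.6 FPKM in the controls and 12.6 and 5.14 FPKM in the mutants. *Nhlh1* also lost ground to *Neurod1*, with a mean log2 ratio of −2.73 ± 0.03 in the controls and −3.32 ± 0.11 in the mutants (SD, n = 3).

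Against *Atoh1*, both *Neurod1* and *Nhlh1* gained. The CPM ratio of *Neurod1* to *Atoh1* was 9.08 in the controls and 154 in the mutants, and that of *Nhlh1* to *Atoh1* was 1.37 and 15.5. The mutant level of *Atoh1*, 0.362 CPM, lay under the prior of 0.5 CPM added to every value, so the size of these ratios rests on it. With a prior of 0.1 CPM, the differences of the log2 ratios were 5.02 and 4.40 in place of 4.09 and 3.50. Across lineages, the log2 ratio of *Neurog2* to *Neurod1* was −4.88, −4.64 and −4.43 in the control libraries and −3.78, −3.94 and −3.34 in the mutant libraries. The groups did not overlap in any of the 6 ratios compared, and each difference gave a two-sided exact permutation p of 0.1 (adjusted p = 0.1 over the 6), the smallest that 20 arrangements of 3 against 3 libraries allow. The 6 ratios share genes and are not independent of each other or of the fold changes above.

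**Figure D4:**
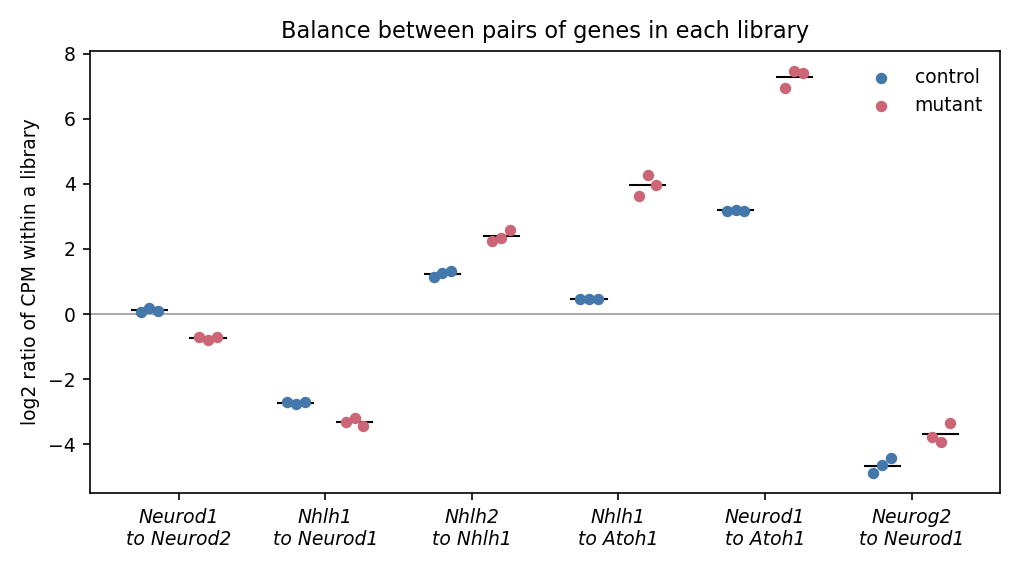
Log2 ratio of the CPM of 2 genes within each library, with 1 point per library and a bar at the mean of each group. Control and mutant libraries do not overlap in any of the 6 ratios, and the difference between the group means was largest, 4.09, for *Neurod1* to *Atoh1*, or 5.02 with a prior of 0.1 CPM in place of 0.5 CPM.

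For each downregulated factor, the genes with the most similar profile were looked up among 12670 genes with mean CPM of 5 or more. Likeness was the root mean square difference of log2 CPM over the 6 libraries, each gene set relative to its control mean. *Atoh1* had no gene within 0.1, and its nearest were *Tlx3* at 0.702, *Chrnb4* at 0.939 and *Insm2* at 1.26, with log2 fold changes of −4.70, −4.99 and −4.39. *Nhlh1* had 2 genes within 0.1, and its nearest were *C230057M02Rik* at 0.0701, *Cadps2* at 0.0971 and *St18* at 0.114. *Neurod1* had 18 such genes, led by *E2f1* at 0.0458, *Sgo1* at 0.0596 and *Gm11611* at 0.0660, with log2 fold changes of −1.17, −1.19 and −1.11. *Nhlh2* had 117, led by *Usp45* at 0.0251, *Baz1b* at 0.0305 and *D430040D24Rik* at 0.0400. The number of near genes thus grew as the fall became smaller, toward the bulk of all genes near 0.

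Proneural factors work with E proteins and are held back by Id and Hes proteins, so these regulators were read from the same fit. None of the 3 E proteins, the shared dimer partners, passed both thresholds, and 1 did when mutant 2 was left out. *Tcf3* had 200, 195 and 206 CPM in the control libraries and 161, 161 and 153 CPM in the mutant libraries, a log2 fold change of −0.34 (edgeR adjusted p = 0.000643). *Tcf4* had −0.44 (adjusted p = 0.0122) and *Tcf12* −0.08 (adjusted p = 0.298). The 3 had a median of −0.34, and the mutants lay below the controls without overlap for *Tcf3* and *Tcf4*.

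Id proteins bind E proteins without binding DNA and so keep proneural factors inactive. All 4 were higher in every mutant library than in every control library, a separation found in 20.4% of all tested genes, and they had a median log2 fold change of 0.45. *Id3* rose from 85.0, 77.4 and 83.2 CPM in the control libraries to 131, 139 and 132 CPM in the mutant libraries, a log2 fold change of 0.71 ± 0.05 (SE, edgeR adjusted p = 2.68e-05). *Id1*, *Id2* and *Id4* had log2 fold changes of 0.45, 0.40 and 0.46, under the threshold of 0.5, with adjusted p of 0.00361, 0.000989 and 0.000223. Without control 3, 2 of the 4 were called. Markers of astroglia, in which Id genes are also active, lay higher in the mutants as well, with 5 of 5 separated, 2 called, and a summed level of 2719 to 2747 CPM in the controls and 3377 to 3621 CPM in the mutants. Of these markers, 1 was called without control 3 and in the 3 limma fits. Their part in the Id values was not tested.

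Among the Hes and Hey repressors, which act downstream of Notch in many progenitors, 6 of 7 could be tested and 2 were downregulated. *Hey1* fell from 93.5, 93.8 and 86.6 CPM to 43.5, 39.4 and 44.3 CPM, a log2 fold change of −1.11 ± 0.07 (SE, edgeR adjusted p = 7.02e-06). *Hes6*, a member known for promoting rather than blocking differentiation, fell by 0.51 on the log2 scale (edgeR adjusted p = 0.000354), just past the threshold. The count of called genes in this list was 1 when control 1 or mutant 3 was left out. It was also 1 with scaling by library size alone and in both limma fits on log2(FPKM + 1). *Hes1* and *Hes5* had log2 fold changes of 0.32 and 0.43 with adjusted p of 0.0933 and 0.228. The median of the 6 was 0.09.

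In a list of 12 bHLH factors of other lineages, 9 were tested, 1 was downregulated and 2 upregulated, with a median of 0.02. *Ptf1a*, which specifies GABAergic neurons in the ventricular zone and acts there beside the neurogenins, had 6.05, 4.23 and 4.43 CPM in the control libraries and 2.08, 2.67 and 1.74 CPM in the mutant libraries. Its log2 fold change was −1.18 ± 0.24 (SE, edgeR adjusted p = 0.00552). This call was lost when control 1, control 2, control 3, mutant 1 or mutant 3 was left out, and in the 3 limma fits. *Olig1* and *Olig2*, of the oligodendrocyte lineage, rose by 0.71 and 0.66 on the log2 scale (adjusted p = 9.85e-05 and 0.000307).

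The lineage around these factors was read from lists of marker genes. In the list of GNPs, 6 of 8 genes were downregulated and the median of the log2 fold changes was −1.13, and the summed level was 1217 to 1327 CPM in the controls and 604 to 635 CPM in the mutants. *Barhl1*, a homeobox factor of the rhombic lip, had −2.59, and *Ccnd1*, a cyclin of dividing GNPs, −1.05. The chemokine receptor *Cxcr4*, in contrast, had 0.06 (edgeR adjusted p = 0.505). In the list of granule neurons leaving the cell cycle, 4 of 6 were downregulated, with a median of −0.75. *Insm1*, a zinc finger factor of this transition, fell by 1.80 on the log2 scale, from 304, 291 and 334 CPM to 87.0, 88.6 and 92.1 CPM (SE of the log2 fold change 0.06, edgeR adjusted p = 2.01e-07), close to *Nhlh1*, and *Pax6* fell by 0.99.

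Of the list of maturing granule neurons, 7 of 8 genes were tested and 2 were downregulated, *Rbfox3* with −0.73 and *Cbln1* with −0.53, with a median of −0.41. The medians of the 3 lists were −1.13, −0.75 and −0.41. Beside them stood *Atoh1* at −6.40, *Nhlh1*, *Neurod1* and *Nhlh2* at −1.78, −1.16 and −0.60, and *Neurod2* at −0.31. The ranges of the 3 lists overlapped, from −2.59 to 0.06, from −1.80 to −0.16 and from −0.73 to −0.02. The difference between the lists was not tested. No gene of the 3 lists was upregulated. The part of these lists in the values of the proneural factors was not tested.

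The lists of 4 other kinds of cerebellar neurons had medians above 0. In the list of the GABAergic lineage, in which *Neurog1*, *Neurog2* and *Ptf1a* act at an earlier stage, 3 of 8 genes were upregulated and none downregulated, and the median stood at 0.47. These were *Skor2* with 0.78, *Gad1* with 0.59 and *Gad2* with 0.52, and the summed level was 708 to 750 CPM in the controls and 941 to 958 CPM in the mutants. Of 5 Purkinje cell markers, 4 were upregulated, with a median of 0.63. The 3 markers of unipolar brush cells and the 4 of glutamatergic nuclear neurons, which also descend from the rhombic lip, had medians of 0.21 and 0.28 and 1 upregulated gene each, *Calb2* with 0.57 and *Meis2* with 0.66. The call in unipolar brush cells was lost without control 1, control 2, mutant 1 or mutant 3, that in nuclear neurons without mutant 1 or mutant 3, and both in the 3 limma fits. In 3 of the lists 1 gene lay lower in every mutant library without passing the fold threshold, *Lhx1* of the GABAergic lineage with −0.38, *Eomes* of unipolar brush cells with −0.42 and *Slc17a6* of nuclear neurons with −0.49. *Slc17a6* was called when control 1 or mutant 1 was left out.

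**Figure D5:**
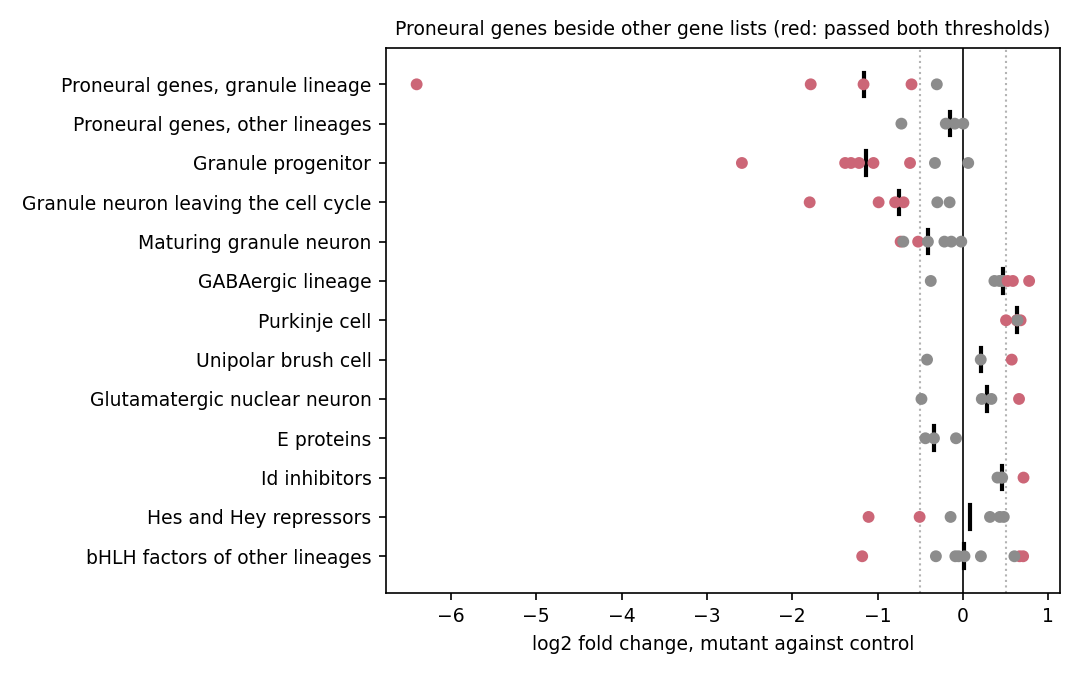
Log2 fold changes of the proneural factors beside those of other gene lists, with 1 point per tested gene, a bar at the median of the list and red for genes past both thresholds. The medians of the 3 granule lineage lists lie to the left of 0, at −1.13, −0.75 and −0.41, and those of the GABAergic and Purkinje cell lists to the right, at 0.47 and 0.63.

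Tissue beside the cerebellum was checked because *Neurod6* and *Neurod2* are abundant in cerebral cortex. The cortical genes *Emx1* and *Emx2* had at most 5 and 2 counts in any library, so that these defining markers of cortex were at or near 0 in both groups. *Otx2*, the one tested gene of a midbrain and hindbrain list of 6, fell by 1.16 on the log2 scale (edgeR adjusted p = 1.81e-05) and is also expressed by GNPs. *Th* of the same list did not pass the filter, with 4, 6 and 4 counts in the control libraries and 33, 2 and 33 in the mutant libraries. In this list 1 gene was called higher without mutant 2, and 1 with a filter of at least 1 count over all libraries. The median log2 fold changes of markers of endothelium, microglia, erythrocytes, meninges and the oligodendrocyte lineage were −0.09, 0.30, 0.04, 0.15 and 0.44. In the last of these, *Sox10* and *Mbp* rose by 0.97 and 0.69 on the log2 scale and *Pdgfra* lay lower in every mutant library, at −0.45, and in the meninges list *Col1a1* rose by 0.85. Choroid plexus markers varied between mutant libraries, with a summed level of 71.1 to 135 CPM in the controls and 9.19 to 721 CPM in the mutants. The 4 downregulated factors kept their call with each library left out.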

How the data were processed

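Bulk RNA-seq of P1 cerebella was analysed for 3 control and 3 mutant libraries, grouped by their labels. For the counts, the authors filtered paired-end reads, aligned them to mm10 with HISAT2 2.0.5 and counted them per gene with featureCounts 1.5.0-p3, per the submitters' processing notes. The deposited counts are not normalized, and strand setting and annotation release are not given in the sources used here. The authors deposited FPKM values made from counts and gene length, which were used here for levels.

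Counts of all genes were fitted with edgeR 4.0.16 under R 4.3.3 (functions filterByExpr, glmQLFit and glmQLFTest, TMM scaling), mutant against control without covariates. The 17505 tested genes held 99.8% of the counts. Calls needed an adjusted p below 0.01 together with a log2 fold change of more than 0.5 in size, thresholds taken from the study's methods. The common dispersion was 0.0105. CPM values are scaled by TMM, and ratios used a prior of 0.5 CPM. The edgeR standard errors were derived from the log2 fold change and the statistic of its test, and the intervals rest on them. Same-group libraries differed by more than sampling noise (chi-square per gene 3.48 to 9.23), so that none was a copy of another. Nothing in the labels states separate animals, and p-values measure the spread between these libraries.

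Alternatives were DESeq2 1.42.0, other scalings, filters and thresholds, the replicate number as a block, Y-chromosome genes as a covariate, each library left out, and limma 3.58.1 on log2(FPKM + 1) and log2(FPKM + 0.1). The 9 genes, the marker lists and the pairs for ratios were chosen with earlier results of these data known. Genes named are the 9 factors, *Tox3*, overlapping genes, the 3 nearest profiles of each called factor, any member of lists of up to 7 genes and otherwise called genes or up to 3 with the smallest p. *Cxcr4*, named as a gene that did not pass the thresholds, was chosen after its values were seen, as were the genes under other observations. Some genes of the lists are not reported here.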

Additional observations from a re-analysis of the deposited data

How the results depend on the processing

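Of 1139 values recomputed under 17 other fits and settings, 1068 kept their direction and their side of the threshold or stayed within 1.5 times. The 4 downregulated factors kept their call wherever they were tested, and a filter of 10 counts in every library removed *Atoh1*, so that 3 factors were called there. With each library left out, *Neurod4* lay between −0.078 (without mutant 3) and 0.092, and it was also negative without control 3, at −0.030. *Neurod2*, at −0.31, passed where an adjusted p under 0.05 with any fold change was asked for.

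Of the counts, those over all genes and several list counts moved by more than 1.5 times. With limma on log2(FPKM + 1), 360 genes were lower and 243 higher, on log2(FPKM + 0.1) 416 and 297, on log2(FPKM + 1) without a filter 286 and 176, and at an adjusted p under 0.05 with any fold change 2252 and 2136. With each library left out, between 492 and 778 were lower and between 349 (without mutant 3) and 569 higher. In the lists of bHLH partners and regulators, 1 gene was lower with both limma fits on log2(FPKM + 1), 6 lower and 7 higher at an adjusted p under 0.05, and between 1 (without control 1 or mutant 3) and 4 lower with a library left out. In the lists of other cell types, 9 were higher with both limma fits on log2(FPKM + 1), and 6 lower and 23 higher at an adjusted p under 0.05. The cause of these moves was not tested.

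The groups share replicate numbers. The deviations of same-numbered libraries correlated at 0.265, 0.295 and −0.163, and not every library correlated best with its own number. Over all pairs of a control and a mutant library, the correlation was positive where both had the same sex by *Ddx3y* and negative otherwise. These correlations therefore cannot decide whether the numbers pair the libraries, and the main fit did not pair them. With the replicate number as a block, 4 of the 9 factors were again downregulated, *Atoh1* by 6.41, and 696 genes were lower and 561 higher over the table. At this depth, genes with few counts such as *Neurog1* have wide intervals.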

Other observations

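The count table holds 91 genes of the bHLH family besides the 9 proneural factors. Of these, 64 were tested, 7 were downregulated and 3 upregulated, with a median log2 fold change of −0.07. These calls include *Hey1*, *Hes6*, *Ptf1a*, *Id3*, *Olig1* and *Olig2*, which were described above. The downregulated genes included *Mycn*, a driver of GNP growth, at −0.62 (adjusted p = 4.92e-05), *Tfap4* at −0.93 (adjusted p = 9.85e-05) and *Mxd3* at −0.77 (adjusted p = 0.000444), with all p-values here by edgeR. *Myod1*, known as the myogenic bHLH factor, had a mean of 1.56 CPM in the controls and 0.259 CPM in the mutants (log2 fold change −2.52, standard error 0.53, adjusted p = 0.00696 from edgeR).

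The 2 nearest tested genes on each side of each of the 9 factors, 36 in all, were also read, at distances of up to 1471500 bases. Of these, 4 were downregulated and 1 upregulated, beside 3.63% and 3.03% of all tested genes. *Itga7*, 1309870 bases from *Neurod4*, had a log2 fold change of −0.87. The upregulated *Ppp1r1b*, 18756 bases from *Neurod2*, had 0.63. A part of nearness in these values was not tested. Next to *Neurog2*, which did not pass the thresholds, *Zgrf1* and *Larp7* were downregulated, with log2 fold changes of −0.85 and −0.57. *Itga4* on one side of *Neurod1* had −0.72 (adjusted p = 0.00668), with 119398 bases between them.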
